A study of Mus musculus with 22 samples.

Results

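Sphingosine-1-phosphate (S1P) signalling was described through 10 mouse genes: the kinases Sphk1 and Sphk2, the receptors S1pr1 to S1pr5, the lyase Sgpl1 and the phosphatases Sgpp1 and Sgpp2. They were taken by gene symbol from the 53379 genes of the count table, and all 10 were in it and passed the filter on low counts that left 40714 genes. The family was selected on the measured log2 fold changes of Sphk1 and S1pr3 after kainate in these libraries, so all kainate values of the 10 genes are given as a description. Counts of the 10 past a threshold there, adjusted or unadjusted, are a record of the fit and no test of the family. The mRNAseq came from the left hippocampi of adult male C57/BL6N mice, which arrived at 8 weeks of age and were acclimatized for 4 weeks. Kainate mice received 70 nl of 20 mM kainate, a glutamate receptor agonist, above the right hippocampus, so the left hippocampus was contralateral to the injection. Only kainate mice with convulsive seizures were kept, and sham mice received 0.9% NaCl at the same site. Hippocampi were taken 24 h later and pooled from 4 or 2 mice, which gave 3 pools from 8 mice per treatment. Nuclei of each pool were sorted by NeuN, a neuronal nuclear protein, into a NeuN+ fraction, called neurons here, and a NeuN- fraction, called glia here, which can also hold endothelial cells, pericytes and some neurons. The 11 libraries were 3 of kainate neurons, 3 of sham neurons, 3 of kainate glia and 2 of sham glia, numbered 1 and 3. No gene was altered in any group.

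S1P is a lipid signal made from sphingosine, which ceramidases release from ceramide. The kinases phosphorylate sphingosine, the phosphatases turn S1P back into sphingosine, and the lyase cleaves it irreversibly. Exported S1P acts on 5 G protein-coupled receptors. In the brain S1pr1 is known from astrocytes and endothelium, S1pr5 from oligodendrocytes, and S1pr2 and S1pr3 are known to couple to several classes of G protein.

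Sphk1 was the kinase with the large kainate values, so the letters upstream of its transcription starts are shown. RefSeq promoter entries (GRCm38.p6) were found for 9 of the 10 genes, in 14 windows of 250 bases before a start, 5 of them for Sphk1. Motifs were searched on both strands, and capitals mark the matches. The first window lies at chr11:116531057-116531086 on the plus strand, with TATAAA 31 bases before the start at 116531100. The second lies at chr11:116531781-116531810 on the plus strand. Its AP-1 match (TGANTCA, a site of Fos and Jun proteins) begins 50 bases before the start at 116531837. Its STAT match (TTCNNNGAA) begins 41 bases before the same start.
Sphk1 TATA window: ctgaggcccaagTATAAAatgtcctgcagg
Sphk1 AP-1 and STAT window: tgtcgcTGAGTCAccTTCTCGGAAggcact
Both stretches also overlap annotated exons. Of 32851 promoter windows of the same length, 6.75% held the AP-1 letters, 7.02% the STAT letters and 12.4% the TATA letters. The other letters searched were TGACGTCA (CRE, in 1.55% of all windows) and GCGNGGGCG (EGR, 4.7%), and an NF-kappaB pattern was in 1.41%. The S1pr3 window held none of the 6 motifs, and S1pr2 held a CRE match 181 bases before its start. Matches describe letters and were not tied to the expression values.

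Total counts ranged from 12058875 to 45428465 per library. CPM denotes the level of a gene after TMM scaling of library sizes. For the first gene of each marker list, Rbfox3, which encodes NeuN, was higher in NeuN+ nuclei (log2 fold change 2.72), and Aldh1l1 (-2.19), Cx3cr1 (-5.60), Mbp (-4.34), Pdgfra (-4.99), Pdgfrb (-2.29), Pecam1 (-1.12) and Col1a1 (-1.13) were lower, each at FDR below 0.25. Cd3e of leukocytes was not called (-0.71). Over the lists 7 of 9 neuron markers were called higher in NeuN+ nuclei, without Prox1 (-0.17) and Tubb3 (-0.11), named after their values were seen. All astrocyte, microglia and oligodendrocyte markers (8 each) and all 7 precursor markers were called lower. Called lower were also 5 of 8 endothelial, 5 of 8 pericyte and smooth muscle, 5 of 7 fibroblast and 3 of 7 leukocyte markers, and the fibroblast marker Dcn was called higher (1.52). The 4 libraries numbered 1 stood apart. Of all 53379 genes of the count table, 11446 to 16221 were at 0 in them, against 3275 to 7696 in the others. Summed oligodendrocyte markers in glia ran from 5021 to 27962 CPM after kainate and from 8879 to 39852 in sham, with replicate 1 the highest in each treatment. Low input was used for a pair of libraries, replicate 2 of kainate glia and replicate 1 of sham glia (0.05 ng RNA, 15 PCR cycles), where the remaining 9 had 1 ng and 10 cycles. In these bulk libraries fewer cells of a type and less RNA per cell cannot be told apart.

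The NeuN sort addressed which fraction carried the family. The choice of genes did not use this contrast, but over all libraries it includes the kainate values of Sphk1 and S1pr3 that the choice did use. Over all 11 libraries 6 of the 10 genes were lower and 1 was higher in NeuN+ nuclei by edgeR's quasi-likelihood test at FDR below 0.25. Sphk1 and S1pr3 were 2 of the 6 and were not called in the sham groups alone. Of all genes tested, 20.4% were lower and 16.8% were higher. The median log2 fold change was -1.10 over the 10 genes and -0.47 over all genes, and in the sham groups alone it was -0.48 and -0.37. These p-values treat the libraries as independent, although both fractions of a pool come from the same mice. With the pool as a block the genes called here stayed called. S1pr1 then had an SE of 0.81 and an edgeR FDR of 0.0016, and S1pr3 an FDR of 0.010. For Sphk1 and S1pr3 the sham groups alone gave the values free of the kainate libraries.

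S1pr1, the receptor known for its role in lymphocyte egress and vascular integrity (chr3:115710433-115715072, minus strand), had the widest gap. Its CPM in sham glia was 421 and 98.0, against 2.89, 5.17 and 11.3 in sham neurons. In kainate glia it was 233, 108 and 35.7, against 2.06, 8.08 and 13.6 in kainate neurons. Every glia library was above every neuron library, with a log2 fold change of -4.65 ± 0.63 (SE, n = 6 and 5 libraries) and an edgeR FDR of 0.00013. Leaving out 1 library gave -4.99 to -3.92.

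S1pr5, a receptor of the oligodendrocyte lineage (chr9:21242912-21248443, minus strand), showed the same order. Its CPM was 326 and 65.5 in sham glia, 213, 115 and 52.7 in kainate glia, 10.5, 5.83 and 7.09 in sham neurons, and 6.54, 6.45 and 10.4 in kainate neurons. The fractions did not overlap, and the log2 fold change was -4.34 ± 0.47 (SE) with an edgeR FDR of 3.7e-05. The NeuN- nuclei were higher in all 5 pools, by 5.09 to 32.6 times.

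S1pr2 (chr9:20962361-20976781, minus strand), a receptor coupled to several G proteins, was the third with fully separate fractions. It had 49.0 and 19.7 CPM in sham glia, 32.4, 27.5 and 19.1 in kainate glia, 2.28, 5.97 and 5.48 in sham neurons, and 3.56, 4.94 and 8.47 in kainate neurons. The log2 fold change was -2.55 ± 0.36 (SE, edgeR FDR 0.00018). For all 3 of these receptors the sham groups alone were also called, with log2 fold changes of -5.32 for S1pr1, -4.65 for S1pr5 and -2.90 for S1pr2.

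S1pr3 differed from them at baseline. Over all libraries it was lower in NeuN+ nuclei (-1.51 ± 0.34, SE, edgeR FDR 0.0062), but in the sham groups alone the difference was -0.04, with a 95% interval from -1.14 to 1.06 and an FDR of 0.981. S1pr4, a receptor mainly of blood cells (chr10:81497747-81500132, minus strand), lay between 0.188 and 1.97 CPM in every library and was not called (0.30 ± 0.58, SE, FDR 0.738).

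Among the enzymes Sgpl1, the lyase (chr10:61098642-61147703, minus strand), was lower in NeuN+ nuclei by -1.27 ± 0.33 on the log2 scale (SE, edgeR FDR 0.016), and it was lower in all 5 pools. The sham groups alone gave -1.20 (FDR 0.193), and without sham glia replicate 1 the value over all libraries was -0.71, still called. Sphk1 was lower in NeuN+ nuclei (-0.93 ± 0.36, SE, FDR 0.102), and it was lower there in all 5 pools. It was not called in the sham groups alone (-0.38, FDR 0.799) or without sham glia replicate 3 (-0.34, FDR 0.608). Sgpp2, an S1P phosphatase of the endoplasmic reticulum (chr1:78310345-78420289, plus strand), was the 1 gene called higher in NeuN+ nuclei (0.84 ± 0.32, SE, FDR 0.093). It was higher there in all 5 pools, and its fractions did not overlap (4.01 to 6.80 CPM in glia, 7.30 to 17.0 CPM in neurons), although the sham groups alone missed the threshold (0.81, FDR 0.457). In the sham groups 4 of the 10 genes were called, S1pr1, S1pr2, S1pr5 and Sgpl1, all lower in NeuN+ nuclei, as were 7.63% of all genes.

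Sphk2, the kinase also found in the nucleus (chr7:45709467-45718002, minus strand), and Sgpp1, the other phosphatase (chr12:75714249-75735729, minus strand), were not called (0.26 ± 0.27 with FDR 0.530, and -0.66 ± 0.47 with FDR 0.361, SE). With the pool as a block, which compares both fractions of the same mice, both were called: Sphk2 higher in NeuN+ nuclei (0.37, FDR 0.153) and Sgpp1 lower (-0.45, FDR 0.065). Without the block the sign of both rested on single libraries: Sphk2 was -0.041 without kainate glia replicate 3 and Sgpp1 0.12 without sham glia replicate 1. The fit with the pool as a block called 24.9% of all genes higher and 34.8% lower.

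**Figure D1:**
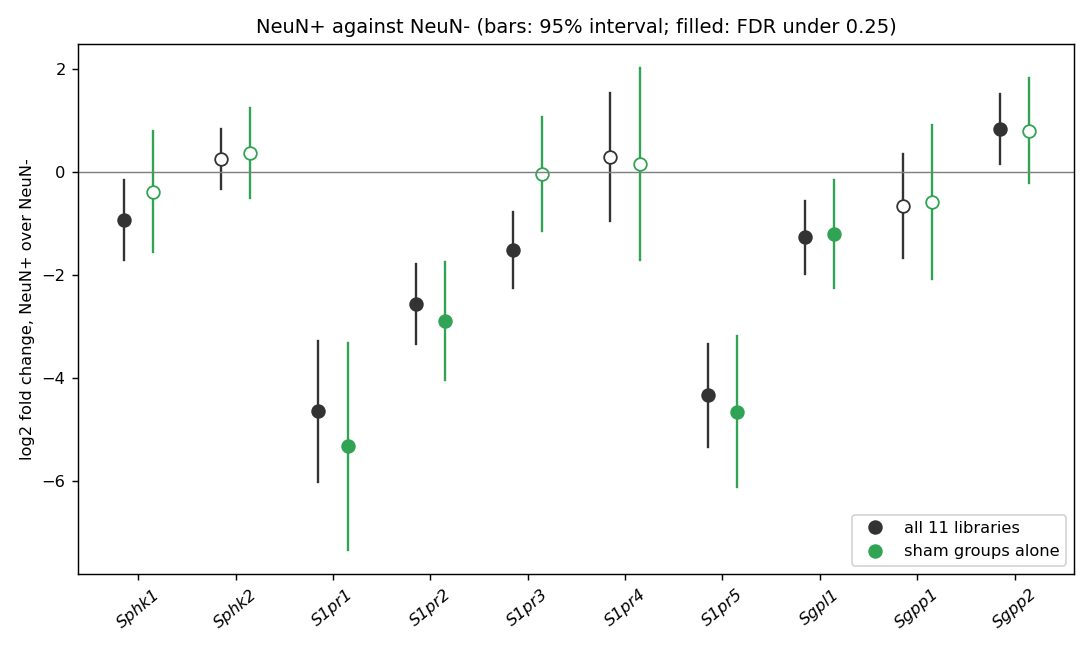
Log2 fold change of NeuN+ over NeuN- nuclei for the 10 genes (y axis) over all 11 libraries (black) and in the sham groups alone (green), with 95% intervals and filled points for FDR below 0.25. S1pr1 and S1pr5 lie lowest, and S1pr3 is near 0 in the sham groups alone.

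Levels were also set per kilobase of exon so that genes could be ordered within a group. In sham glia S1pr1 (85.3 CPM per kb) and S1pr5 (78.4) stood above the rest, and their ranges overlapped each other but not that of the next gene, Sgpp1 (15.9). Sphk1 (1.88) and S1pr3 (1.67) were ranked 7 and 8 there. In kainate glia S1pr5 (50.7) and S1pr1 (41.2) were followed by Sgpl1 (24.2), S1pr3 (20.5) and Sphk1 (20.4), and each of these ranges overlapped the next. In sham neurons Sphk2 (11.8), Sgpp1 (10.6) and Sgpl1 (6.65) formed an overlapping top group separate from the rest. In kainate neurons Sphk1 (7.28) joined Sphk2 (10.6), Sgpl1 (9.60) and Sgpp1 (8.43) in that group, and it had been ranked 8 in sham neurons (1.44). S1pr4 was the lowest in all 4 groups, at 0.408 to 0.561 CPM per kb.

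The kainate comparison asked what changed in the contralateral hippocampus within 24 h. Sphk1, the inducible cytosolic kinase (chr11:116530925-116536674, plus strand), had 3.22, 9.42 and 7.99 CPM in sham neurons and 25.3, 37.9 and 41.2 CPM in kainate neurons. In glia it had 3.96 and 14.0 CPM in sham and 133, 80.4 and 79.2 CPM after kainate. The lowest kainate library was above the highest sham library in both fractions. The log2 fold change was 2.33 ± 0.51 (SE, n = 3 and 3) in neurons and 3.44 ± 0.63 (SE, n = 3 and 2) in glia, which is 5.03 and 10.8 times.

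Within pairs of 1 replicate number the kainate library held 4.02 to 7.84 times the sham level of Sphk1 in neurons and 5.67 and 33.6 times in glia. The wide glial pair ratio came with replicate 1, where the sham library had the low value of 3.96 CPM. Leaving out 1 library gave glial values of 2.83 (without sham glia replicate 1) to 4.61 (without sham glia replicate 3). In neurons the gene missed the threshold that 0.165% of all genes passed, and it was called with the replicate number as a block (2.41 ± 0.27, SE), where 5.09% were called. In neurons it was also called without kainate glia replicate 1 or either sham glia library, which enter the shared estimate of the spread. In glia it was among the 0.101% of genes called, but not with the fractions fitted separately, without both low input libraries (2.95), without any 1 of the kainate glia libraries, or without sham glia replicate 1, kainate neurons replicate 2 or sham neurons replicate 3.

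Summed astrocyte markers in kainate neurons (291 to 438 CPM) did not overlap those in sham neurons (205 to 277 CPM), although single astrocyte markers had values of both signs, such as Aqp4 (1.51 on the log2 scale) and Gja1 (-0.71). Without Gfap, left out after the values were seen, the sums overlapped (251 to 312 CPM after kainate, 187 to 253 CPM in sham). Microglia sums overlapped (72.7 to 83.0 and 49.1 to 75.2 CPM) but were higher after kainate in 3 of 3 pairs. The part of these marker levels in the Sphk1 value was not tested. Oligodendrocyte sums overlapped as well (214 to 459 and 267 to 481 CPM). Of the 8 astrocyte markers, of which no library had one at 0, edgeR called 0 in neurons, with 2 at an unadjusted p under 0.05 (Gfap and Aqp4), and DESeq2 called 1, Gfap, the intermediate filament of reactive astrocytes (1.90 on the log2 scale by edgeR). With the replicate block 4 were called higher and 2 lower. Of all genes, 2.09% had such an unadjusted p in neurons and 5.09% were called with the block. An antisense gene, Gm29292, shares 4.02% of the exon bases of Sphk1, and the library kit does not mark strand.

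Sphk2 showed no such pattern. It had 59.9, 42.9 and 44.5 CPM in sham neurons, 47.0, 42.8 and 42.5 in kainate neurons, 51.25 and 24.7 in sham glia, and 51.8, 41.7 and 26.3 in kainate glia. The groups overlapped in both fractions. The log2 fold change was -0.16 (95% interval -0.93 to 0.62) in neurons and 0.07 (-0.80 to 0.94) in glia. Opposite-strand exons of Rpl18 and Dbp cover 21.9% of the exon bases of Sphk2, so its counts may hold reads of both.

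The balance of the kinases therefore differed between the groups. Per length, the Sphk1 to Sphk2 ratio was 0.047 to 0.191 in sham neurons and 0.468 to 0.844 in kainate neurons. In glia it was 0.067 and 0.493 in sham and 1.68 to 2.62 after kainate. Sphk1 thus exceeded Sphk2 per length only in the 3 kainate glia libraries of the 11. Which kinase is the higher depends on the exon length used, for Sphk1 4774 bases merged from 16 transcripts. It also depends on the exon bases that Sphk2 shares with Rpl18 and Dbp.

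**Figure D2:**
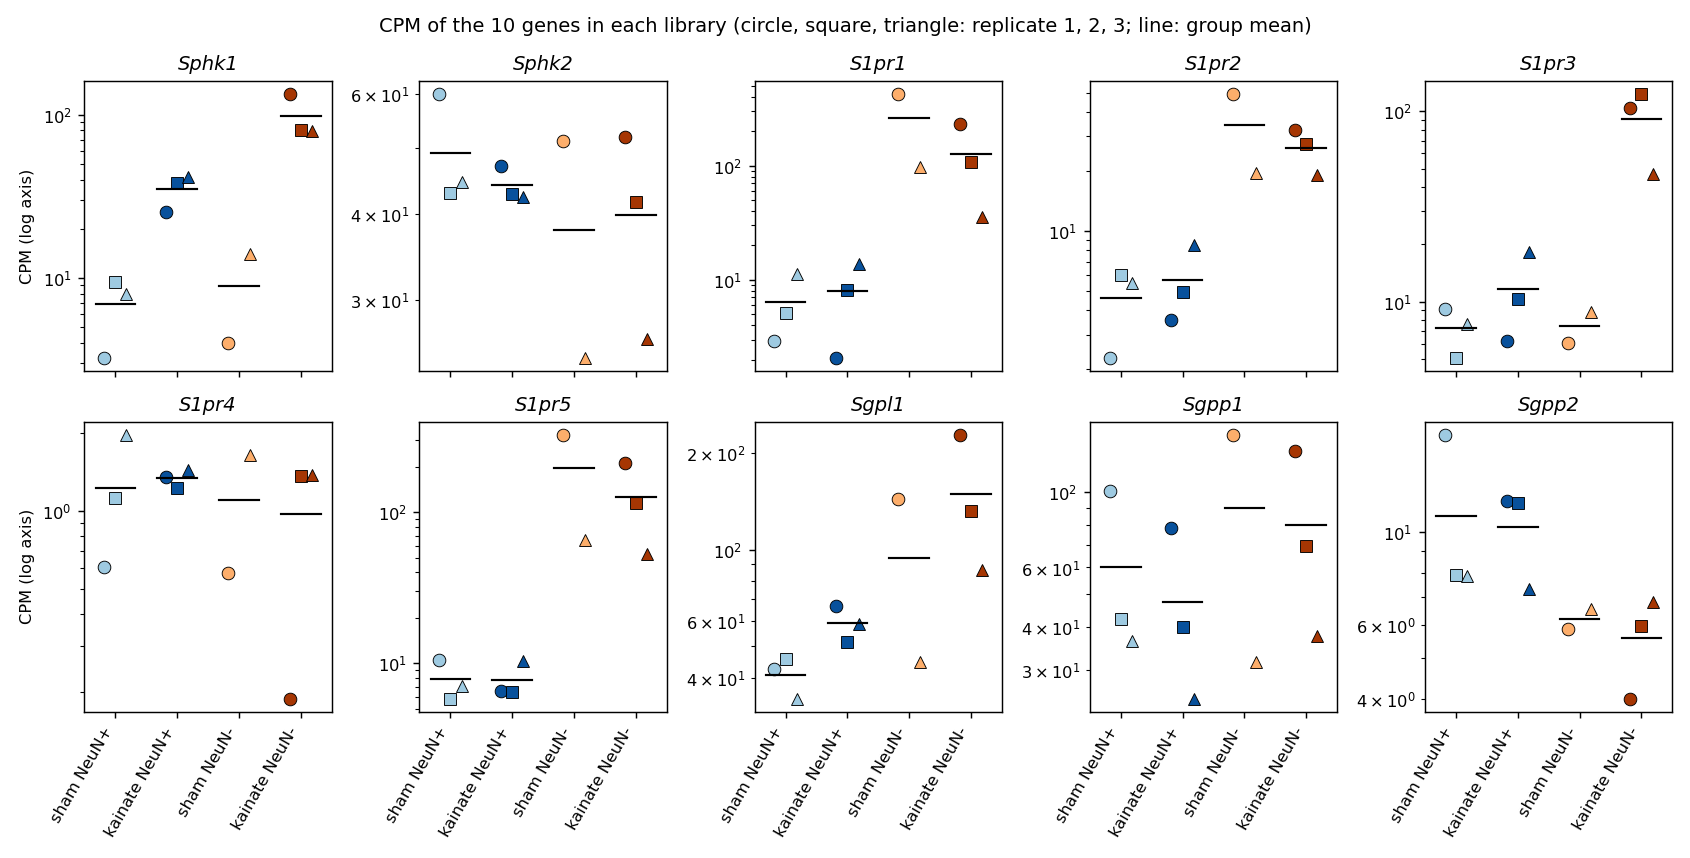
CPM (y axis, log scale) of each of the 10 genes in every library, by group on the x axis, with circles, squares and triangles for replicates 1, 2 and 3 and a line at the group mean. Sphk1 is higher after kainate in both fractions, and S1pr3 stands apart in kainate glia alone.

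S1pr3, a receptor coupled to Gi, Gq and G12/13 proteins (chr13:51408639-51422797, plus strand), had 6.07 and 8.83 CPM in sham glia and 104, 123 and 47.1 CPM in kainate glia. The lowest kainate glia library thus held 5.33 times the level of the highest sham glia library. In neurons it had 9.13, 5.05 and 7.67 CPM in sham and 6.19, 10.3 and 18.3 after kainate, and these ranges overlapped. The kainate library was the lower in the pair numbered 1 and the higher in the other pairs, and without the 4 libraries numbered 1 the neuronal value was 1.09 and was called. The log2 fold change was 3.61 ± 0.59 (SE, 12.2 times) in glia and 0.68 ± 0.46 (SE) in neurons. It was among the called genes in glia, and leaving out 1 library gave 3.34 to 3.90 there. The call was lost without kainate glia replicate 2 (3.34), without sham glia replicate 1 (3.4003), without both of these low input libraries (3.12) and with the fractions fitted separately (3.63).

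The kainate effect on S1pr3 in neurons minus that in glia was -2.94 ± 0.71 on the log2 scale (SE, 95% interval -4.46 to -1.41). Of all genes, 0.00246% were called for this difference, and none of the 10 were by edgeR, with 1 of them, S1pr3, at an unadjusted p under 0.05. DESeq2 called S1pr3 alone of the 10, and 0.0663% of all genes. With the replicate block, S1pr3 (-2.60), Sphk1 (-1.29) and S1pr1 (1.40) were called for this difference, and 1.94% of all genes.

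The glial S1pr1 values ran the other way. The kainate library was the lower of both glial pairs, at 0.554 and 0.364 times the sham level. The log2 fold change in glia was -1.05 ± 0.83 (SE, 95% interval -2.84 to 0.74), not called. The groups overlapped because sham replicate 3 (98.0 CPM) lay below kainate replicates 1 and 2 (233 and 108 CPM). With the replicate block it was called (-1.15 ± 0.24, SE), as were 5.79% of all genes. In neurons the value was 0.30 (95% interval -1.35 to 1.95).

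Astrocyte and oligodendrocyte marker sums were lower after kainate in both glial pairs, as the uncalled values of S1pr1 and S1pr5 were, whereas the microglia sum was lower in pair 1 and higher in pair 3 (768 against 709 CPM). Summed astrocyte markers in glia were 3409, 1683 and 658 CPM after kainate (replicates 1, 2 and 3) and 4488 and 1190 CPM in sham (replicates 1 and 3). By edgeR 0 of the 8 astrocyte markers were called in glia, with 1, Gfap, at an unadjusted p under 0.05. With the replicate block, under which S1pr1 was called, 5 of the 8 astrocyte markers were called lower and 1, Gfap, higher. Under it 4 of the 8 oligodendrocyte markers were called lower. Of all genes, 2.05% had such an unadjusted p in glia and 5.79% were called with the block. S1pr1 per 1000 CPM of these markers was 68.4, 63.9 and 54.2 CPM after kainate and 93.9 and 82.4 in sham. Without Gfap in the sum, a setting chosen after the values were seen, it was 91.4, 100.1 and 94.0 after kainate and 99.0 and 88.9 in sham, so the groups overlapped. S1pr5 per 1000 CPM of summed oligodendrocyte markers was 7.62, 9.60 and 10.5 CPM after kainate and 8.19 and 7.37 in sham, with overlap. The part of these marker levels in the receptor values was not tested. Summed endothelial markers, another known source of S1pr1 and S1pr3, overlapped in glia (35.2 to 56.3 CPM after kainate, 29.8 and 56.2 in sham), and 0 of the 8 were called by edgeR, at an unadjusted p under 0.05 or with the replicate block.

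S1pr5 itself gave -0.63 (95% interval -1.97 to 0.72) in glia and 0.00 (-1.24 to 1.24) in neurons on the log2 scale. S1pr2 gave -0.39 (-1.50 to 0.73) in glia and 0.30 (-0.72 to 1.32) in neurons, and S1pr4 gave -0.17 (-2.02 to 1.69) and 0.11 (-1.54 to 1.76). None of these was called. The sign of several glial values rested on sham glia replicate 1: without it S1pr1 was 0.39, S1pr2 0.44, S1pr5 0.98 and Sgpp1 1.37, all uncalled.

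The make-up of receptor transcripts differed between the glial groups. Of the summed CPM per kb of the 5 receptors, S1pr3 made up 0.492% and 3.12% in the sham glia libraries and 12.3%, 24.4% and 22.8% in kainate glia. The S1pr1 share was 50.01% and 50.7% in sham glia and 25.3% to 40.5% after kainate. S1pr5 held 41.2% to 47.2% in sham glia and 40.7% to 45.5% in kainate glia. In neurons the S1pr3 share was 17.6% to 26.4% in sham and 24.4% to 28.5% after kainate, with overlap. These shares are not independent of each other, since they sum to a whole.

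**Figure D3:**
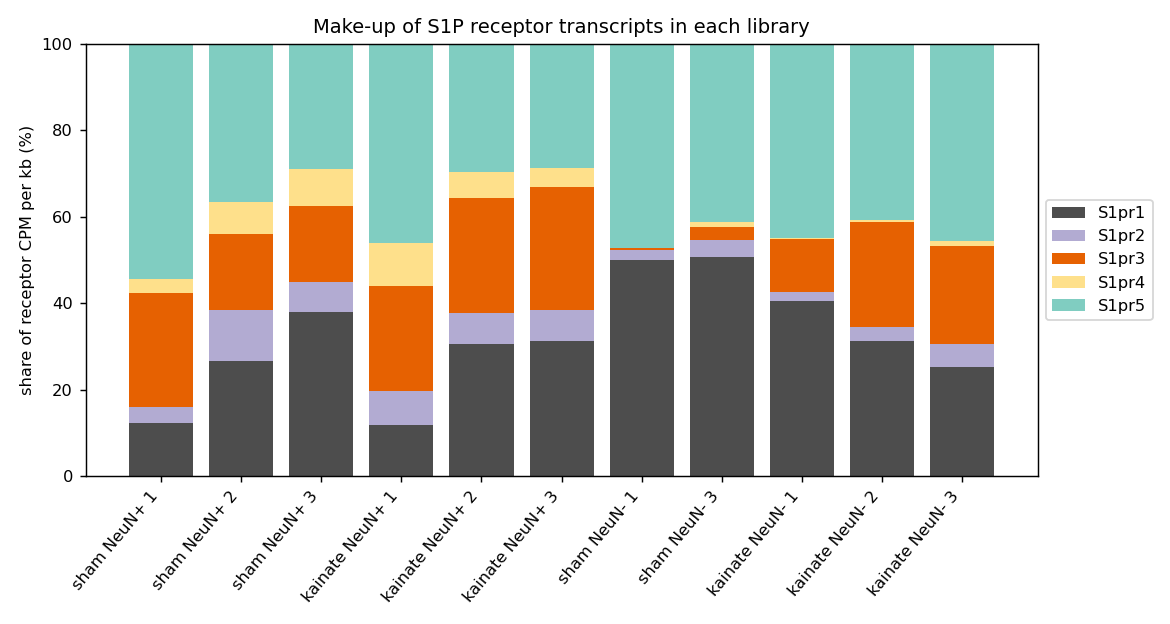
Share of each of the 5 receptors in their summed CPM per kb (y axis, percent) in each of the 11 libraries, as stacked bars. The S1pr3 share is at most 3.12% in sham glia and at least 12.3% in kainate glia, while S1pr5 stays near the same share in glia.

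The lyase Sgpl1 was higher after kainate in 5 of 5 pairs. In neurons it had 42.5, 45.7 and 34.4 CPM in sham and 66.8, 51.6 and 58.5 after kainate, without overlap. In glia it had 143 and 44.7 CPM in sham and 228, 131 and 86.3 after kainate, with overlap. The log2 fold changes were 0.53 ± 0.45 in neurons and 0.66 ± 0.51 in glia (SE), not called. The glial value was 1.76 without sham glia replicate 1, 0.045 without sham glia replicate 3 and 0.081 without kainate glia replicate 1. With the replicate block they were 0.53 ± 0.19 and 0.81 ± 0.23 (SE), and both were called. The Sphk1 to Sgpl1 ratio per length, of the S1P-making over the S1P-degrading enzyme, was 0.098 to 0.299 in sham neurons, 0.486 to 0.946 in kainate neurons, 0.036 and 0.402 in sham glia, and 0.753 to 1.18 in kainate glia.

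Neither phosphatase was called. Sgpp1 had 101, 42.4 and 36.5 CPM in sham neurons and 78.2, 39.985 and 24.6 in kainate neurons, lower in 3 of 3 pairs, with a log2 fold change of -0.33 (95% interval -1.69 to 1.02). In glia it gave -0.17 (-1.67 to 1.34), with 148 and 31.5 CPM in sham and 132, 69.5 and 37.6 after kainate. Sgpp2 lay between 4.01 and 17.0 CPM over all libraries and gave -0.08 (-0.98 to 0.81) in neurons and -0.15 (-1.15 to 0.85) in glia. Of the exon bases of Sgpp2, 6.2% are shared with Farsb on the other strand.

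**Figure D4:**
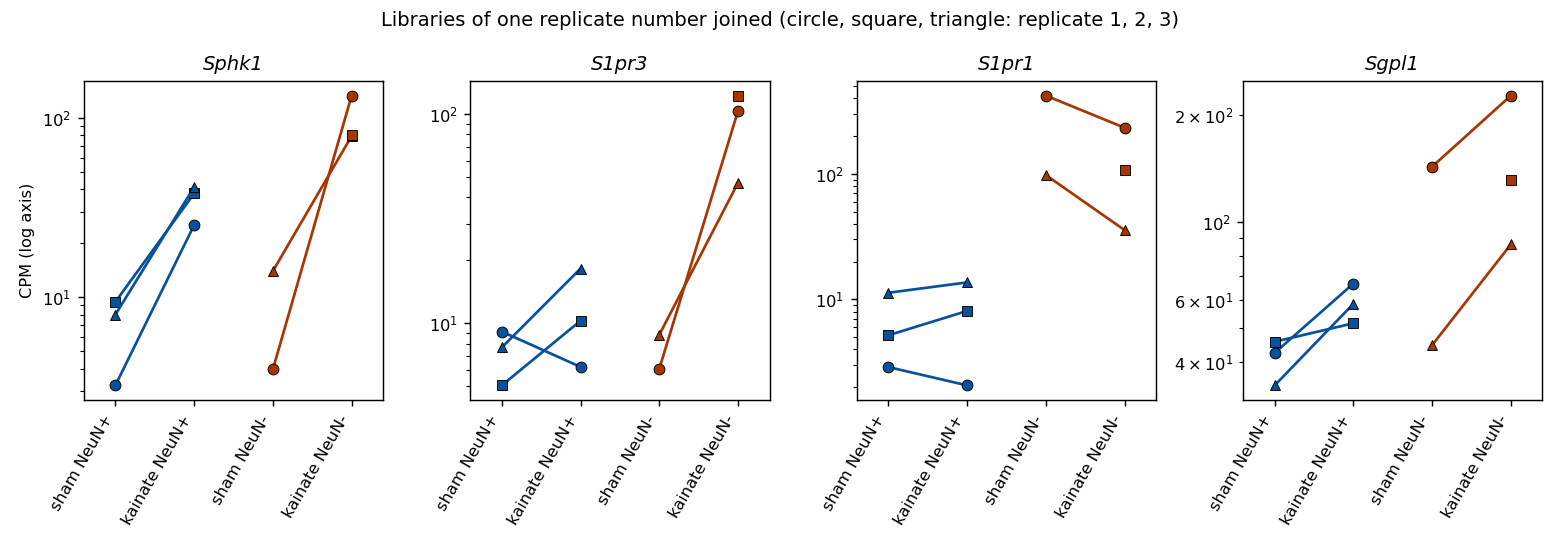
CPM (y axis, log scale) of Sphk1, S1pr3, S1pr1 and Sgpl1, with lines joining the sham and kainate library of 1 replicate number in neurons (blue) and glia (brown). Kainate glia replicate 2 has no sham partner. The kainate end is the higher along all 5 lines for Sphk1 and Sgpl1, and the lower along both glial lines for S1pr1.

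Counted over the family, 0 of the 10 genes were called by edgeR in neurons (0.165% of all genes), with 1, Sphk1, at an unadjusted p under 0.05, and DESeq2 called Sphk1 alone, as it did 0.815% of all genes. In glia 2 of the 10 were called, Sphk1 and S1pr3 (0.101% of all genes), and DESeq2 called both, with 0.575% of all genes. The groups did not overlap for 2 of the 10 in neurons, Sphk1 and Sgpl1, and for 2 of the 10 in glia, Sphk1 and S1pr3. Over all genes this held for 7.86% and 8.22%. Nothing is read from these counts, since the same contrast chose the family. The median log2 fold change of the 10 was 0.20 in neurons and -0.16 in glia, against -0.01 and 0.02 over all genes.

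**Figure D5:**
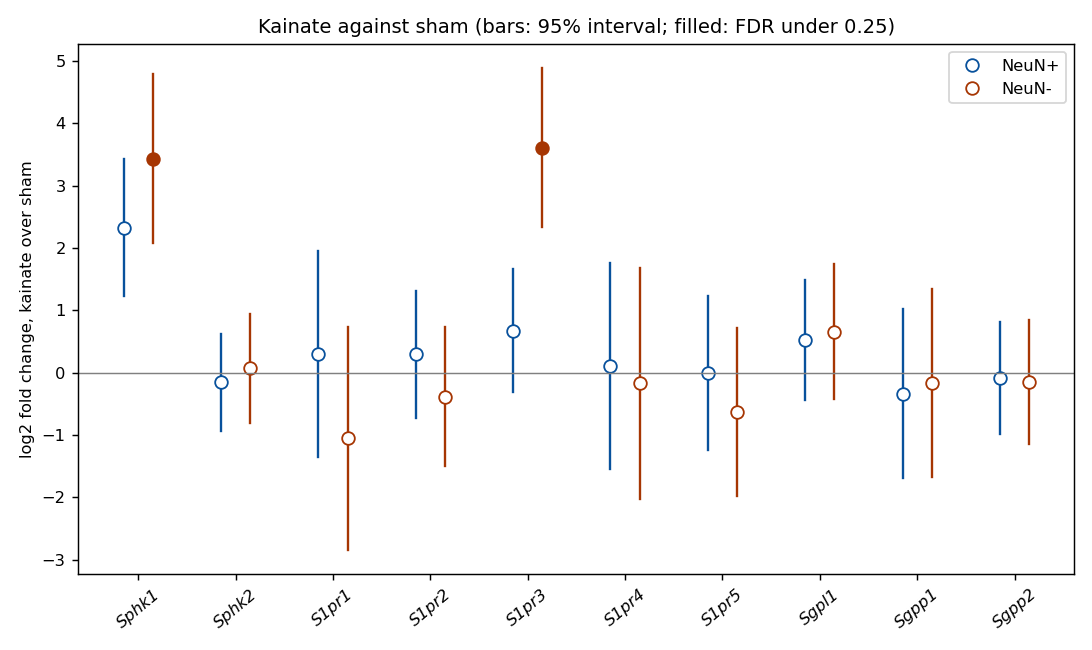
Log2 fold change of kainate over sham (y axis) for the 10 genes in neurons (blue) and glia (brown), with 95% intervals and filled points for FDR below 0.25. Sphk1 is above 0 in both fractions and S1pr3 in glia, while the other intervals include 0.

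The genes around the family, 81 in 5 lists, were all tested. None was called for kainate against sham by edgeR in either fraction. In neurons 4 had an unadjusted p under 0.05 (Ptgs2, Ccn1, Wwtr1 and Smpd2), which is 4.94% beside 2.09% of all genes, and DESeq2 called 2 (Ccn1 and Ptgs2) beside 0.815%. In glia 4 had one (Asah2, Wwtr1, Ccn1 and Ptgs2), beside 2.05% of all genes, and DESeq2 called 2 (Wwtr1 and Ccn1) beside 0.575%. For the difference between fractions no gene had one, and DESeq2 called none. Their median log2 fold change was 0.00 in neurons and -0.17 in glia.

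The values nearest to a call were among the receptor effectors. Ptgs2, the inducible cyclooxygenase, had 58.6, 31.8 and 39.4 CPM in sham neurons and 552, 163 and 124 in kainate neurons (2.69 ± 0.59 on the log2 scale, SE). Ccn1, a matrix protein induced by YAP signalling, had 3.36, 2.58 and 1.84 CPM in sham neurons and 11.2, 11.5 and 17.4 in kainate neurons (2.38 ± 0.55, SE). In glia Ccn1 had 35.0 and 8.97 CPM in sham and 152, 103 and 45.9 after kainate (2.19 ± 0.62, SE). Wwtr1, the YAP partner TAZ, had 10.8 and 10.4 CPM in sham glia and 43.8, 32.4 and 19.7 in kainate glia (1.59 ± 0.43, SE). For each of these 4 comparisons the kainate and sham libraries did not overlap. Of the 81 genes this held for 10 in neurons and 8 in glia, beside 7.86% and 8.22% of all genes.

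In the other lists the gene with the smallest p in neurons was Acer2 (0.41), an alkaline ceramidase, Sptssb (-0.56), a small subunit of serine palmitoyltransferase, Smpd2 (-1.46), a neutral sphingomyelinase, and Abca1 (-0.99), a lipid exporter. In glia it was Asah2 (-0.95), the neutral ceramidase, Cers6 (0.54), a ceramide synthase, Smpdl3a (-1.39), a phosphodiesterase related to acid sphingomyelinase, and Plpp3 (-1.17), a lipid phosphatase of the cell surface. For the kainate effect in neurons minus that in glia it was Asah2 (1.01), Cers6 (-0.57), Smpd2 (-1.07), Mfsd2b (0.74), an S1P exporter of blood cells, and Arhgef12 (-1.08), a guanine nucleotide exchange factor. None was called.

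With the replicate block 6 of the 81 were called higher and 4 lower in neurons, where 5.09% of all genes were called, and 6 higher and 5 lower in glia, where 5.79% were. The genes are named after their values were seen. Higher in neurons were Ptgs2, Ccn1, Wwtr1, Ccn2, Rhob and Smpd1, and lower were Mapk3, Abca1, Mfsd2a and Smpd2. Higher in glia were Cerk, Wwtr1, Ccn1, Ptgs2, Ccn2 and Arhgef12, and lower were Gnai1, Gna12, Plpp3, Smpdl3a and Ugt8a. For the difference between fractions Arhgef12, Rhob and Smpd2 were called, and 1.94% of all genes. Cerk, the ceramide kinase, was called higher in glia under the block (1.19 ± 0.22, SE) and gave 1.05 ± 0.50 (SE) without it.

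Between the fractions 51 of the 81 genes were called, 18 higher and 33 lower in NeuN+ nuclei, where 16.8% and 20.4% of all genes were, with a median log2 fold change of -0.54. Of the 17 ceramide synthesis genes 3 were higher, the ceramide synthases Cers6 (2.54), Cers4 (2.03) and Cers1 (1.02), and 4 were lower, among them Cers2 (-2.49), the desaturase Degs1 (-1.54) and the regulator Ormdl2 (-0.83). All 4 called genes of the 6 ceramidases and ceramide kinase were lower: Cerk (-1.78), Asah2 (-1.54), Acer1 (-1.78) and Acer2 (-0.54). Acer1 was near the floor, at 0.16 to 0.54 CPM in neurons and 0 to 2.23 CPM in glia. In the pools numbered 1 it was higher in neurons.

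Of the 16 genes of sphingomyelin and glycosphingolipid turnover 6 were higher in NeuN+ nuclei and 6 lower. The lowest by p were Ugt8a (-5.72) and Gal3st1 (-3.82), which make the myelin lipids galactosylceramide and sulfatide, and Sgms2 (-1.25), a sphingomyelin synthase. The higher ones included the neutral sphingomyelinases Smpd3 (2.23) and Smpd4 (1.59) and the glucosylceramidase Gba2 (1.71). Galc, the galactosylceramidase, named after its value was seen, was also higher in NeuN+ nuclei (0.74).

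All 5 called genes of the 10 for transport and lipid phosphatases were lower in NeuN+ nuclei. They were the phosphatases Plpp3 (-4.86) and Plpp2 (-4.03), and the transporters Abca1 (-3.08), Mfsd2a (-3.02) and Mfsd2b (-0.69). Of the 32 G proteins and effectors 9 were higher and 14 lower. Rhoc (-3.15), a small GTPase, Ccn1 (-3.00), Plcb3 (-2.53), a phospholipase C, and Wwtr1 (-1.89) were lower, and Ptgs2 (3.15) and Plcb1 (1.75), another phospholipase C, were higher.

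The genes most like Sphk1 over the 11 libraries by Pearson's r of log2 CPM were Serpina3i (0.97), a serine protease inhibitor, Emp1 (0.96), an epithelial membrane protein, Socs3 (0.94), an inhibitor of JAK-STAT signalling, Atf3 (0.94), a stress-induced transcription factor, and Ahnak2 (0.93). Those most like S1pr3 were Tm4sf1 (0.97), a membrane protein of endothelial and other cells, Ucn2 (0.97), a peptide of the corticotropin-releasing family, Cd44 (0.96), the hyaluronan receptor, Gm3448 (0.96) and Itga5 (0.96), the fibronectin receptor subunit. These r describe 11 points that share their group means, pools and depth. Socs3 was higher after kainate by 4.47 in neurons and 5.50 in glia on the log2 scale. Cd44 was higher by 1.54 and 3.72 and Tm4sf1 by 1.76 and 4.22.

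The other marker lists gave summed levels that overlapped between kainate and sham in both fractions. Of 70 marker genes tested edgeR called 0 for kainate against sham in neurons and 0 in glia, beside 0.165% and 0.101% of all genes. In each, 3 (4.29%) had an unadjusted p under 0.05, beside 2.09% and 2.05% of all genes. DESeq2 called 1 in each, Gfap in neurons and P2ry12 of microglia in glia, beside 0.815% and 0.575%. Neuron markers (9 genes) summed to 3293 to 6534 CPM in kainate neurons and 3981 to 7637 in sham neurons, and to 809 to 1124 and 649 to 1007 in glia. Microglia markers (8) summed to 768 to 2249 CPM in kainate glia and 709 and 3985 in sham glia. Precursor markers (7) summed to 667 to 2787 and 1435 and 4704 there, lower after kainate in both pairs. Pericyte and smooth muscle markers (8) summed to 60.7 to 116 and 87.9 and 152, fibroblast markers (7) to 62.6 to 91.6 and 79.5 and 109, and leukocyte markers (7 tested) to 84.3 to 97.0 and 77.5 and 97.2. In sham neurons fibroblast sums were 53.5 to 129 CPM against 35.6 to 72.0 after kainate. Fibroblast sums were lower after kainate in all 5 pairs, but the members were of both signs: in neurons Dcn, the largest part of the sum in pair 1, was lower in 3 of 3 pairs and Col1a1 higher in 3 of 3 pairs. Pericyte and smooth muscle sums were lower after kainate in both glial pairs and higher in 3 of 3 neuronal pairs. Endothelial sums were lower after kainate in 3 of 3 neuronal pairs and higher in both glial pairs. At least 1 leukocyte marker had no counts in 3 libraries: Ly6g in sham neurons replicate 1 and kainate glia replicate 1, and S100a9 in sham glia replicate 1. No marker of the other 8 lists was at 0 in any library.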

How the data were processed

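The authors trimmed reads with Trim Galore 0.4.3, used Rsubread for alignment to mm10, and took unique alignments into gene totals by featureCounts with GENCODE M16. SMART-Seq v4 amplified mRNA from total nuclear RNA. A strand setting is not given in the sources used here. Those deposited raw counts cover 11 libraries. The 11 bisulfite samples were not analysed here. The extraction notes in the labels name right hippocampi, whereas the design and the study's methods name left ones.

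After 105 genes that have no symbol were dropped, filterByExpr (minimum count 10, total 15) kept 40714 genes. Counts were TMM-scaled and fitted with edgeR 4.0.16 (R 4.3.3, glmQLFit, legacy mode) to 4 group means over all 11 libraries, with Benjamini-Hochberg FDR below 0.25, the study's threshold, as the call. The study fitted each fraction separately on genes with an official HGNC symbol. At that threshold the study listed Sphk1, Ptgs2 and Ccn1 as upregulated in neurons. In glia it listed Sphk1, S1pr3 and Wwtr1 as upregulated. A separate fit is an alternative here, on genes with any symbol, so it does not repeat the study's fit or those calls. Other alternatives are DESeq2 1.42.0, other filters, left-out libraries and the replicate block. Nothing in the labels says that pools of different treatment share a batch, but same-numbered kainate and sham libraries deviated together (r 0.64, 0.16 and 0.49 in neurons, 0.76 and 0.79 in glia), and both fractions of a number come from 1 pool, so numbers were taken to pair libraries.

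CPM per kb use exon lengths of GENCODE M21 (GRCm38). Coordinates are from the same annotation. Fits were tested on simulated data. The 10 genes, the other pathway and marker lists and the tests were chosen with earlier results of these data known. Named from each other list were called genes, at most 6 by smallest p, or the 1 with the smallest p, the 5 genes most correlated with Sphk1 and with S1pr3, and the first gene of each marker list. The kainate comparisons of neurons and of glia share no libraries. Precision is limited by the number of pools, and sham glia had 2.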

Additional observations from a re-analysis of the deposited data

Results flagged for a closer look

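The kainate effect in neurons minus that in glia passed the threshold for 3 of the 10 genes with the replicate number as a block in edgeR, as it did for 1.94% of all genes. It was -1.29 for Sphk1, -2.60 for S1pr3 and 1.40 for S1pr1. Without the block the values were -1.11, -2.94 and 1.35, and none was called. The S1pr3 difference ranged from -3.43 to -2.64 and the Sphk1 difference from -2.28 to -0.50 when 1 library was left out. Without sham glia replicate 1 the S1pr1 difference was -0.09. The family was selected on the kainate values of Sphk1 and S1pr3, so these values are a description and no test of the difference.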

How the results depend on the processing

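In neurons 0 of the 10 genes were called, against 1 (Sphk1) with DESeq2's Wald test, edgeR's newer quasi-likelihood method, no filter on low counts, a minimum CPM of 1 (3 libraries), the fractions fitted separately, or both low input libraries left out, and 2 with the replicate block or without the 4 libraries numbered 1, a setting chosen after seeing the data. Leaving out 1 library gave 0 to 1. In glia 2 were called, against 0 at FDR below 0.05, with the fractions fitted separately or with both low input libraries left out, and 4 with the replicate block. Leaving out 1 library gave 0 to 2: 0 without kainate glia replicate 2 or sham glia replicate 1, and 1 (S1pr3) without replicate 1 or 3 of kainate glia, replicate 2 of kainate neurons or replicate 3 of sham neurons, where Sphk1 lost its call. For the effect in neurons minus glia 0 were called, against 1 (S1pr3) with DESeq2 or without the libraries numbered 1, 3 with the replicate block, and 0 to 0 with 1 library left out. Between fractions 7 were called, against 4 in the sham groups alone, 5 at FDR below 0.05, 9 with the pool as replicate block and 7 to 8 with 1 library left out. The cause of these changes was not tested. The uncalled difference between fractions changed sign for Sphk2 without kainate glia replicate 3 (-0.041, and -0.041 to 0.59 with 1 library left out) and for Sgpp1 without both low input libraries (0.072) or sham glia replicate 1 (-1.02 to 0.12 with 1 library left out). Sphk1 and S1pr3 in glia kept their direction in all 24 settings, at 2.53 to 4.61 and 3.12 to 3.90, and Sphk1 in neurons at 2.00 to 2.62. Among the 10 genes the replicate block changed no other call than those given beside the results. A sham glia library left alone was taken to vary like the other groups. DESeq2's size factors moved the median of all genes by less than 0.1 on the log2 scale. Few pools, with 2 in sham glia, limit all kainate values.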
